A study of Mus musculus with 18 samples.

Results

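Splenic B cells of C57BL/6 mice were given mBaffR-mFc and then BAFF 60mer, and their transcripts were compared with those of cells given mBaffR-mFc and no BAFF. The comparison was set by its treatments and covers 6 of the 18 libraries of the series, 3 in each group, and 11646 of the 35275 genes in the table, those that averaged 1 FPKM or more across the 18 libraries. FPKM are fragments per kilobase of gene and per M fragments (M, mega). All libraries came from pan B cells isolated from spleen. Cells in every group first spent 1 h with 1000 ng/ml of either a control antibody or mBaffR-mFc, and the treated groups then received BAFF at 100 ng/ml for 4 h. The groups named here are BRFc (mBaffR-mFc, no BAFF), BRFc_60mer (mBaffR-mFc, BAFF 60mer), Ab (control antibody, no BAFF), Ab_60mer (control antibody, BAFF 60mer) and Ab_3mer (control antibody, BAFF 3mer). The labels do not say how many animals stand behind a library or whether replicates came from separate animals, so the p-values speak only of the spread among the libraries at hand.

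BAFF is a cytokine of the TNF family that mature B cells need to survive. It binds the receptors BR3 (gene Tnfrsf13c) and TACI (Tnfrsf13b) on B cells. BR3 removes the adaptor TRAF3 and so lets the kinase NIK drive processing of the NF-kB2 precursor p100, the noncanonical NF-kB pathway, while TACI answers mainly to clustered forms of its ligands. The 3mer is the basic soluble form of BAFF and the 60mer is an assembly of such trimers. mBaffR-mFc is a soluble fusion protein of the BAFF receptor, and the series uses it to cover the site on BAFF that BR3 binds. The comparison asks which transcripts still answered to BAFF 60mer in its presence.

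The libraries of the comparison held 15.9 to 25.4 M fragments, as recovered from the steps between low FPKM values. Summed FPKM of 7 B cell marker genes was 4908 to 5288 in BRFc and 4598 to 4905 in BRFc_60mer. All 7 had a negative difference (median -0.08), and only Cd22 passed (14.3%, against falls in 3.37% of all tested genes). Markers of other cells were low beside the B cell sum. The sums in BRFc and BRFc_60mer were 164 to 180 and 162 to 173 for macrophages and monocytes, 22.6 to 33.4 and 29.6 to 32.1 for neutrophils, and 5.33 to 6.64 and 5.24 to 6.84 for T cells. They were 16.7 to 22.7 and 16.4 to 17.7 for platelets, 59.4 to 74.7 and 59.7 to 61.1 for endothelium, and 2.24 to 3.49 and 2.84 to 3.26 for red cells. For NK cells the sums were 166 to 186 and 164 to 165. Of 12 members, 2 fell (16.7%, against 3.37% of all tested genes), Klrd1 by 0.34 ± 0.07 on the log2 scale and Il2rb by 0.22 ± 0.054. Klrd1 did not pass without BRFc replicate 2. Il2rb did not pass without BRFc replicate 2 or 3 or BRFc_60mer replicate 2 or 3. For dendritic cells the sums were 13.3 to 15.9 and 18.7 to 23.5. Of the 3 tested members only Zbtb46 passed, and the other two had negative differences (median of the 3, -0.06). Transcripts of connective tissue split the libraries sharply. The sum of Col1a1, Col1a2, Col3a1, Sparc, Dcn and Bgn was 9.79 to 10.7 FPKM in BRFc_60mer and 0 to 0.054 in BRFc. C1qa, a complement gene of macrophages, moved with them, from 0 to 0.05 FPKM in BRFc and 0.97 to 1.52 in BRFc_60mer. None of the 7 tested members of the macrophage and monocyte list passed, and 5 had a negative difference (median of the 7, -0.06). All 3 Ab_60mer libraries and replicates 1 and 2 of Ab_3mer also carried the connective tissue transcripts. The treatment and this split therefore cannot be told apart within the comparison, and the counts of each pathway list are also given for Ab_60mer against the 2 carrying Ab_3mer libraries. This carrying comparison holds the split constant in other libraries, and 0.884% of tested genes were higher and 1.23% lower in it. It sets BAFF 60mer against BAFF 3mer under control antibody, not against no BAFF. A gene that the 3mer moves likewise may therefore show no difference in it. In RNA from a mixed sample, fewer cells of a type and less RNA per cell cannot be told apart.

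**Figure D1:**
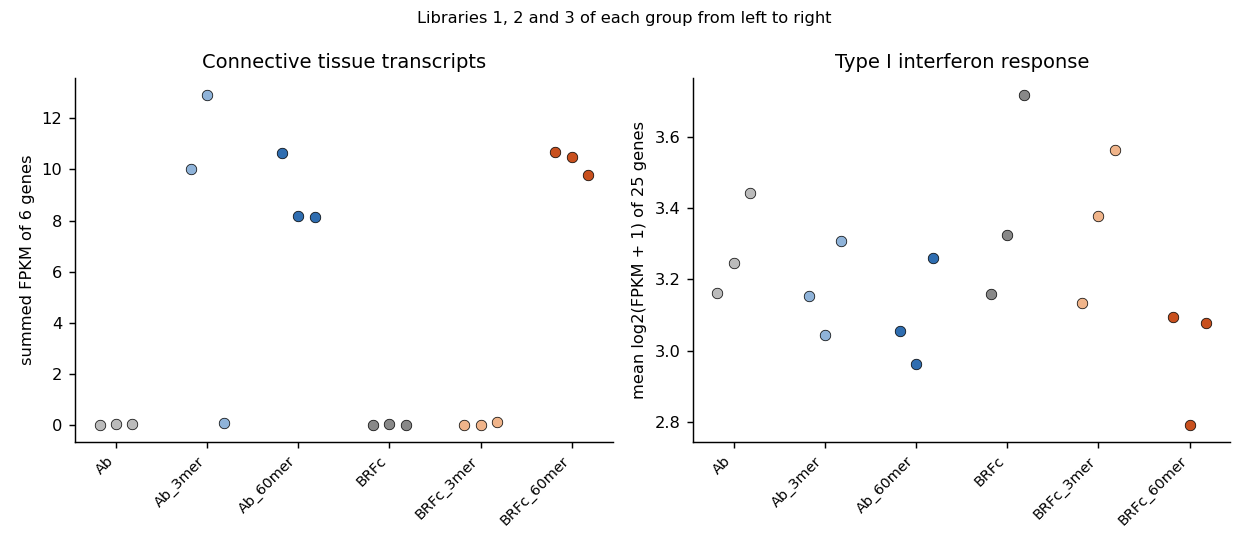
Summed FPKM of 6 connective tissue genes (left) and mean log2(FPKM + 1) of 25 genes of the type I interferon response (right), with 1 point per library and the 6 groups along the x axis. The BRFc_60mer libraries sit at 9.79 to 10.7 on the left while BRFc sits at 0.054 or less; on the right, replicate 3 of BRFc is the highest of all 18 libraries and replicate 2 of BRFc_60mer the lowest.

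Between BRFc_60mer and BRFc, 563 of 11646 genes differed, or 4.83% of those tested (limma on log2(FPKM + 1), Benjamini-Hochberg adjusted p under 0.05). Of these, 170 rose (1.46% of tested genes) and 393 fell (3.37%). Most changes were small, with a median size of 0.32 on the log2 scale. Over 1.5-fold, 15 genes rose and 23 fell, which is 0.326% of tested genes, and over 2-fold 4 rose and 1 fell. In 560 of the 563 the BRFc and BRFc_60mer libraries did not overlap, against 20.5% of all tested genes. The median log2 difference of all tested genes was -0.02. Rescaling the libraries by median-of-ratios factors gave 226 rises and 289 falls, so that rises made up 43.9% of the calls in place of 30.2%. The count depended on single libraries: it was 306 without BRFc replicate 2, 242 without BRFc replicate 3, 340 without BRFc_60mer replicate 1 and 321 without BRFc_60mer replicate 2. A fit of only these 2 groups gave 139 genes. A term for whether a library carries connective tissue transcripts, which rests on the 3 Ab_3mer libraries, left 10 genes, 7 higher and 3 lower, with Il4i1, Kynu, Fcer2a and S1pr1 as the named genes among them. Its estimates were less precise: over the 84 named genes that passed, the median standard error was 0.135 with the term and 0.075 without it. The median difference in the called direction was 0.36 with the term and 0.44 without it. The sign was kept by 83, and 28 were at least as large, among them Nfkb2 at 0.62 and Pim2 at 0.68. These genes were picked because they passed without the term, and both fits share all libraries, so kept signs are no separate evidence. Whether the lost calls come from lower precision or from the split was not tested. Of the 84, 42 also passed in the fit of only BRFc and BRFc_60mer, and Il4i1, Kynu, Fcer2a and S1pr1 with the connective tissue term. Compared with the carrying Ab_3mer libraries in place of BRFc, so that the pretreatment differs too, BRFc_60mer differed in 141 genes (1.21%).

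Enzymes of amino acid breakdown were among the largest rises. Kynu (chromosome 2, 43555329 to 43682715, GRCm38) encodes kynureninase, which acts in the breakdown of tryptophan. It stood at 24.7, 24.8 and 25.6 FPKM in the BRFc libraries and at 44.4, 46.6 and 43.2 FPKM in the BRFc_60mer libraries. The groups lay far apart and each was tight, and the rise was 0.81 ± 0.049 on the log2 scale (SE; adjusted p = 9.91e-08). Il4i1 (chromosome 7, 44816387 to 44840809) encodes a secreted amino acid oxidase that acts on phenylalanine and tryptophan. It stood at 155.8, 148.8 and 127.5 FPKM in BRFc and at 252.3, 300.0 and 333.3 FPKM in BRFc_60mer. Every treated library was above every untreated one, with a rise of 1.03 ± 0.098 (adjusted p = 1.88e-05) and a 2.05-fold ratio of mean FPKM. Exons of Il4i1 overlap those of Atf5 and Tbc1d17 on the other strand. The sources used here do not say whether strand was counted, so reads of these genes may not be told apart. Of 8 tested genes of tryptophan breakdown, these 2 rose (25%, against 1.46% of all tested genes), Haao fell (12.5%, against 3.37%) and 5 did not pass. The same 2 rose and none fell in the carrying comparison. Haao, which acts downstream of Kynu, had a log2 difference of -0.32 ± 0.072 (adjusted p = 0.0146) and did not pass without BRFc replicate 2, BRFc replicate 3 or BRFc_60mer replicate 2 (adjusted p = 0.0659, 0.0867 and 0.0647).

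**Figure D2:**
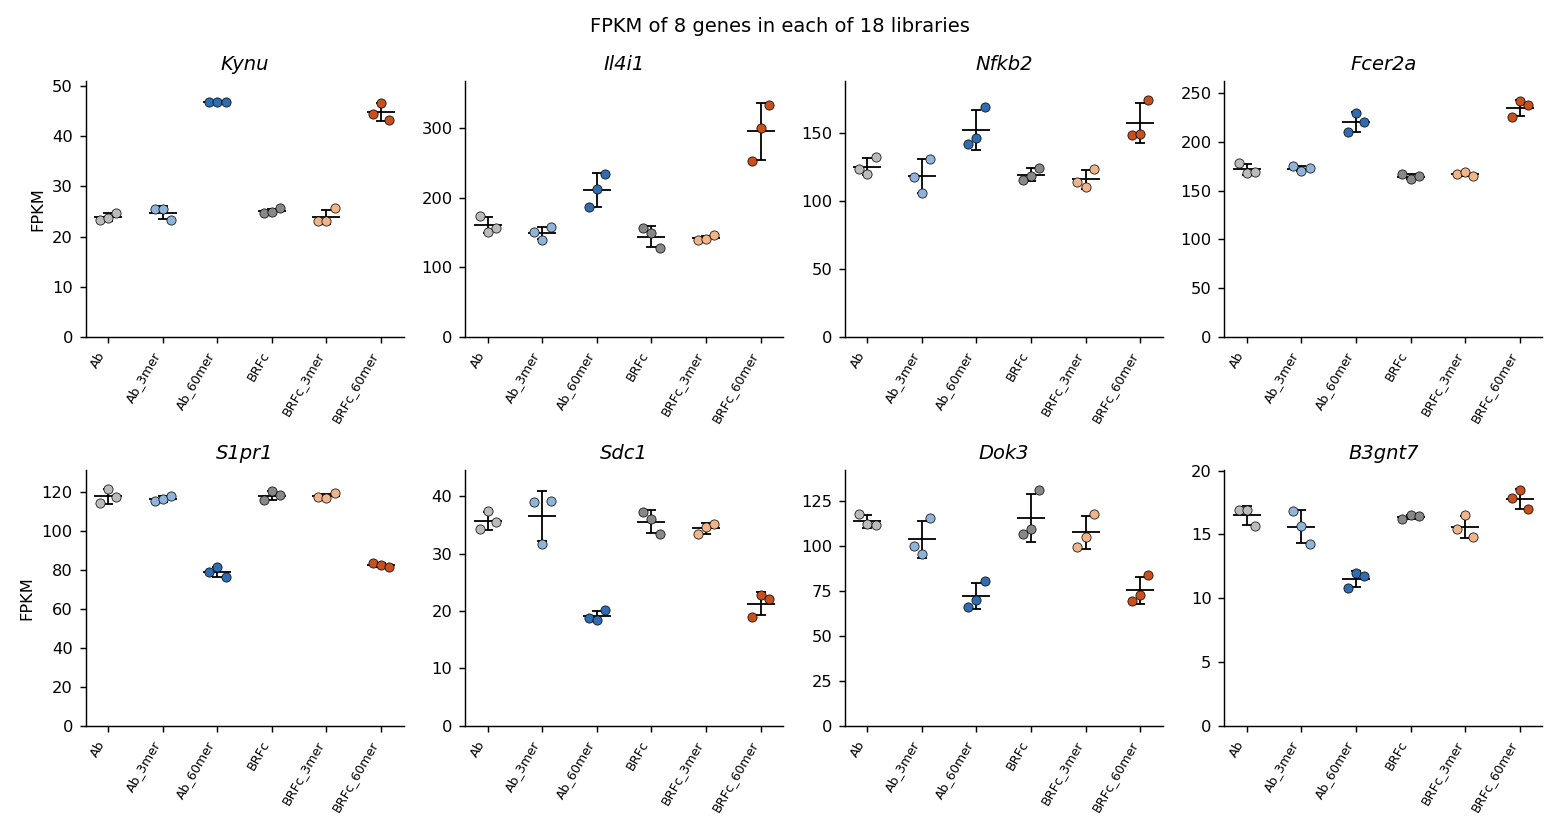
FPKM of 8 genes in each of the 18 libraries, with the group mean (long bar) and SD (whiskers, n = 3); the y axes start at 0. Kynu, Il4i1, Nfkb2 and Fcer2a are higher and S1pr1, Sdc1 and Dok3 lower in both 60mer groups, while B3gnt7 is lower in Ab_60mer and not in BRFc_60mer.

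Genes of the noncanonical NF-kB pathway moved in 1 direction where they passed. Of 8 tested members, 2 rose (25%, against 1.46% of all tested genes), none fell and 6 did not pass, with a median of 0.11 against -0.02 for all tested genes. The carrying comparison had 3 rises and no fall. Nfkb2, which encodes p100, stood at 115.0, 117.9 and 124.3 FPKM in BRFc and at 147.9, 148.6 and 173.8 FPKM in BRFc_60mer. The groups did not overlap and the rise was 0.39 ± 0.081 (adjusted p = 0.00962). Birc3, which encodes an E3 ligase that acts with TRAF2 and TRAF3 on NIK, rose from 334.9 ± 11.1 to 420.2 ± 9.37 FPKM (SD, n = 3), by 0.33 ± 0.036 (adjusted p = 6.47e-05). Relb, the partner subunit of processed p100, was at 0.15 ± 0.044 (adjusted p = 0.067) and Traf3 at 0.18 ± 0.051 (adjusted p = 0.0572), so that neither passed.

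The promoter of Nfkb2 is shown because Nfkb2 rose and its promoter held matches to the NF-kB motif searched. The motif is GGG, then 2 bases of any kind, then TTTCC or TTCCC, on either strand. Nfkb2 was chosen after its matches were seen. Of the 14 largest named rises, none with a RefSeq entry had a match. In the panel, Bcl2l1, which rose, Traf3, Il2ra and Mcl1, which did not pass, and Tnfrsf13b, which fell, also had a match. Both printed stretches lie before 1 RefSeq start of Nfkb2 on the plus strand (GRCm38.p6). They span bases -49 to -20 (chr19:46304688-46304717) and -29 to -1 (chr19:46304708-46304736). Of its other starts, 1 had a single match and another had none. Capitals mark the matched bases, overlapping matches being joined.
Nfkb2, bases -49 to -20: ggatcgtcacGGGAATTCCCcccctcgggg
Nfkb2, bases -29 to -1: cccctcggggggccgaaaGGGGCTTTCCC
The motif was present in the 250 bases before the start of 6 of the 132 rises with a RefSeq entry (4.55%), 10 of 290 falls (3.45%) and 363 of 8639 tested genes (4.2%). Over all 32851 promoters in the table the share was 2.82%. A match is a description of these letters and no evidence of binding.

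Among 16 genes of the canonical NF-kB pathway and its feedback, 2 rose (12.5%, against 1.46% of all tested genes), none fell and 14 did not pass (median 0.07), and 1 rose in the carrying comparison. Both rises were inhibitors that hold NF-kB in the cytoplasm. Nfkbia, which encodes IkB alpha, was at 151.7, 143.1 and 132.4 FPKM in BRFc and at 187.2, 188.8 and 184.5 FPKM in BRFc_60mer. Nfkbie, which encodes IkB epsilon, was at 77.3, 74.3 and 72.7 FPKM against 93.3, 98.3 and 99.0 FPKM. Neither gene's groups overlapped, and the rises were 0.39 ± 0.059 (adjusted p = 0.00105) and 0.37 ± 0.041 (adjusted p = 6.47e-05).

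Of the pathway lists, which share members and were written with earlier results known, the NF-kB targets held the highest share of rises. Of 34 tested, 12 rose (35.3%, against 1.46% of all tested genes), none fell and 22 did not pass, with a median of 0.20. Of the same list 9 rose and none fell in the carrying comparison. Besides Kynu, the 3 largest were Fcer2a, Pim2 and Cd83. Fcer2a (chromosome 8, 3681737 to 3694175) encodes CD23, the low-affinity IgE receptor of follicular B cells. Its values were 166.6, 161.7 and 165.1 FPKM in BRFc and 225.7, 241.8 and 237.2 FPKM in BRFc_60mer. The spread within each group was small beside the rise of 0.51 ± 0.040 (adjusted p = 1.92e-06). Cd83, an activation marker, went from 422.8, 365.9 and 309.5 FPKM to 533.6, 512.8 and 471.1 FPKM. Its rise of 0.48 ± 0.118 (adjusted p = 0.0266) did not pass without BRFc replicate 2 (adjusted p = 0.0808), BRFc replicate 3 (0.154), BRFc_60mer replicate 1 (0.0986) or BRFc_60mer replicate 2 (0.0883). Cr2, which encodes the complement receptor CD21, rose from 31.8 ± 0.648 to 39.2 ± 1.74 FPKM (0.29 ± 0.045, adjusted p = 0.00119). Cd40, the costimulatory receptor, rose from 61.6 ± 2.27 to 78.9 ± 4.29 FPKM (0.35 ± 0.061, adjusted p = 0.00287). Cd44, an adhesion receptor for hyaluronan, rose from 48.9 ± 0.551 to 63.2 ± 3.15 FPKM (0.36 ± 0.044, adjusted p = 0.000154). Il2ra, the alpha chain of the IL-2 receptor, was at 0.20 ± 0.058 and narrowly did not pass (adjusted p = 0.053). Left out 1 library at a time, the count of rises in the list was lowest without BRFc_60mer replicate 1, at 8 of 34. The count was 7 in a fit of only these 2 groups and 2 with the connective tissue term. Against the carrying Ab_3mer libraries in place of BRFc it was 6. It was higher after median-of-ratios rescaling (15), with voom (14) and with quality weights (18).

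Of 15 pro-survival genes, 5 rose (33.3%, against 1.46% of all tested genes), none fell and 10 did not pass (median 0.09), and 4 rose in the carrying comparison. All 5 are also in the list of NF-kB targets or of the noncanonical pathway. Pim2, a kinase that BAFF is known to induce, stood at 55.7, 53.0 and 63.8 FPKM in BRFc and at 73.0, 81.2 and 89.2 FPKM in BRFc_60mer. The groups did not overlap (0.49 ± 0.086, adjusted p = 0.00311). Bcl2l1, which encodes BCL-XL, stood at 22.2, 21.3 and 18.8 FPKM against 26.5, 26.5 and 26.1 FPKM. Its rise of 0.33 ± 0.075 (adjusted p = 0.0161) did not pass without BRFc replicate 3 (adjusted p = 0.0962), BRFc_60mer replicate 1 (0.0532) or BRFc_60mer replicate 2 (0.0563). Traf1, an adaptor that binds Birc2 and Birc3 products, rose from 58.3 ± 3.63 to 70.8 ± 2.03 FPKM (0.28 ± 0.054, adjusted p = 0.0061). Mcl1, another survival factor of B cells, was at 329 ± 19.7 and 328 ± 13.1 FPKM, a log2 difference of 0.00 with a 95% interval from -0.11 to 0.10. The count of rises in this list was 3 without BRFc_60mer replicate 1.

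Of 13 pro-apoptotic genes, 2 fell (15.4%, against 3.37% of all tested genes), none rose and 11 did not pass. In the carrying comparison none passed the test of limma, and 6 of the 13 had an unadjusted p under 0.05, against 1741 of all 11646 genes. Bcl2l11, which encodes the BH3-only protein BIM, went from 98.1 ± 0.541 to 85.0 ± 6.61 FPKM (-0.21 ± 0.051, adjusted p = 0.0255). Bmf, another BH3-only gene, went from 75.1 ± 1.99 to 62.5 ± 5.69 FPKM (-0.27 ± 0.067, adjusted p = 0.0277). Both calls were fragile. Without BRFc replicate 2, BRFc replicate 3 or BRFc_60mer replicate 2 neither passed, Bcl2l11 did not pass without BRFc replicate 1 or BRFc_60mer replicate 3 either, and Bmf did not pass without BRFc_60mer replicate 1. The adjusted p-values ran from 0.0509 to 0.0926 for Bcl2l11 and from 0.09 to 0.127 for Bmf.

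The BAFF receptors themselves went down slightly. Tnfrsf13b, which encodes TACI, was at 147.1, 156.3 and 143.7 FPKM in BRFc and at 126.9, 131.3 and 128.3 FPKM in BRFc_60mer. The libraries did not overlap (-0.21 ± 0.042, adjusted p = 0.00735). Tnfrsf13c, which encodes BR3, was at 106.9, 102.5 and 105.6 FPKM against 91.8, 99.6 and 93.0 FPKM (-0.15 ± 0.039, adjusted p = 0.038). It did not pass when any library other than BRFc_60mer replicate 2 was left out (adjusted p from 0.0647 to 0.143), and not after median-of-ratios rescaling (adjusted p = 0.107). The other members of this list, Tnfrsf17, Tnfsf13 and Tnfsf13b, had a mean under 1 FPKM and were not tested. In the carrying comparison neither receptor passed (Tnfrsf13b: adjusted p = 0.13; Tnfrsf13c: 0.49).

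**Figure D3:**
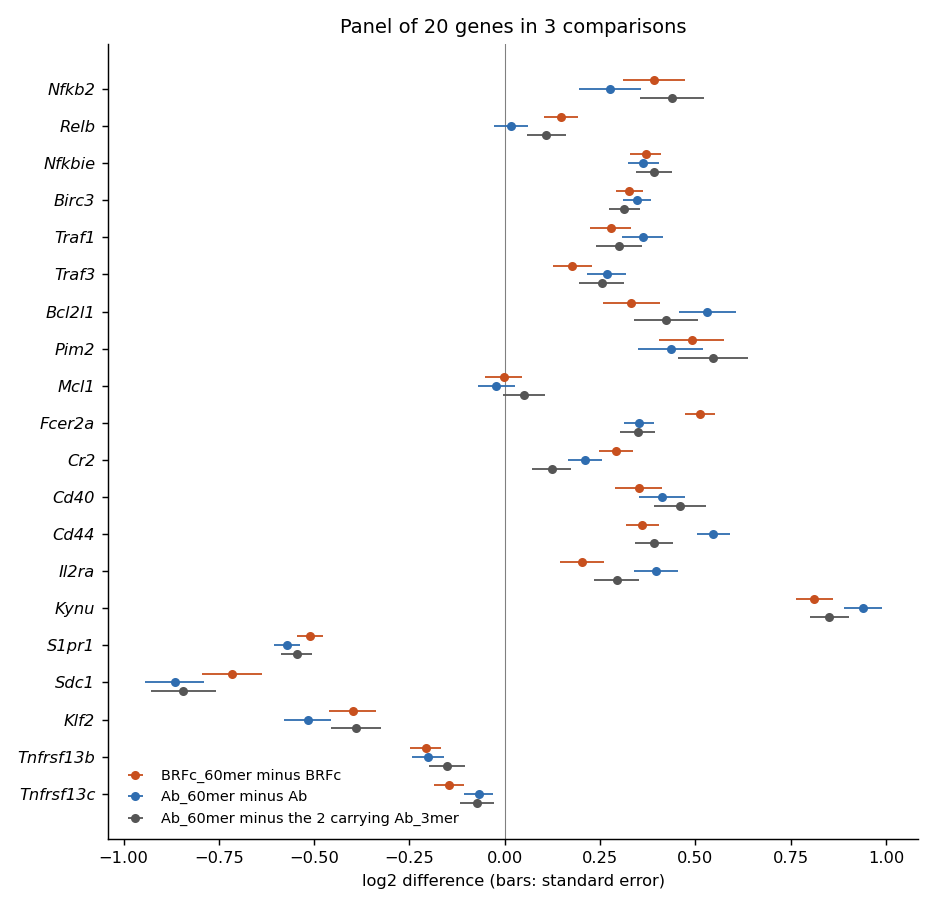
Log2 differences of a panel of 20 genes, with standard errors as bars, for BRFc_60mer against BRFc, Ab_60mer against Ab, and Ab_60mer against the 2 Ab_3mer libraries that carry connective tissue transcripts. Kynu lies at 0.81 to 0.94 and S1pr1 at -0.57 to -0.51 in all 3, and Mcl1 near 0.

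Receptors that guide B cells out of and within lymphoid tissue moved in both directions. Of 14 tested, 3 fell (21.4%, against 3.37% of all tested genes), 1 rose (7.1%, against 1.46%) and 10 did not pass, and 3 fell and none rose in the carrying comparison. S1pr1 (chromosome 3, 115710433 to 115715072) encodes the sphingosine 1-phosphate receptor that draws lymphocytes out of lymphoid organs. Its values were 115.8, 120.6 and 118.5 FPKM in BRFc and 83.7, 82.7 and 81.8 FPKM in BRFc_60mer. No treated library came near an untreated one, and the fall was the most precise of the named ones (-0.51 ± 0.035, adjusted p = 3.32e-07). S1pr4, a further receptor of the same lipid, fell from 38.0 ± 3.88 to 26.2 ± 1.7 FPKM (-0.51 ± 0.099, adjusted p = 0.00571). Klf2, a transcription factor that keeps S1pr1 expressed, was at 64.0, 70.7 and 73.4 FPKM in BRFc and at 50.8, 55.1 and 51.1 FPKM in BRFc_60mer. All treated libraries were below all untreated ones (-0.40 ± 0.062, adjusted p = 0.00119). Gpr183, the oxysterol receptor EBI2 that places B cells at follicle edges, was at 48.4, 43.3 and 38.0 FPKM against 65.7, 66.1 and 60.1 FPKM and rose by 0.56 ± 0.086 (adjusted p = 0.00119). In the carrying comparison its difference was 0.01 (adjusted p = 0.99).

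Of 11 follicular B cell genes, 1 rose (9.1%, against 1.46% of all tested genes), 4 fell (36.4%, against 3.37%) and 6 did not pass. The carrying comparison had 1 rise and 2 falls. The rise was Fcer2a, and Itgb7, an integrin chain used for homing to the gut, had the largest fall. Itgb7 stood at 32.9, 41.7 and 49.7 FPKM in BRFc and at 24.8, 25.1 and 28.3 FPKM in BRFc_60mer (-0.63 ± 0.136, adjusted p = 0.0116). The untreated libraries were widely spread, and without BRFc replicate 3 the gene did not pass (adjusted p = 0.0727). Of 19 marginal zone genes, 3 rose (15.8%), 4 fell (21.1%) and 12 did not pass, against 2 rises and 4 falls in the carrying comparison. Asb2, a subunit of a ubiquitin ligase, was at 1.94, 2.41 and 2.35 FPKM against 6.55, 4.29 and 3.85 FPKM (0.84 ± 0.15, adjusted p = 0.00368). Besides S1pr1, the falls included Rasgrp2, an activator of the small GTPase Rap1, from 148.9 ± 17.7 to 107.6 ± 1.44 FPKM (-0.46 ± 0.082, adjusted p = 0.00379). Tm6sf1 had a log2 difference of -0.45 ± 0.101 (adjusted p = 0.0152) and did not pass without BRFc replicate 3 or BRFc_60mer replicate 1 (adjusted p = 0.0759 and 0.0644).

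Genes that restrain B cell receptor signalling moved in both directions where they passed. Of 13 inhibitory receptors and phosphatases, 3 fell (23.1%, against 3.37% of all tested genes), 1 rose (7.7%, against 1.46%) and 9 did not pass (median -0.12). Only 1 member fell in the carrying comparison. Fcgr2b, the inhibitory Fc receptor for IgG, was at 94.9, 99.3 and 106.1 FPKM in BRFc and at 69.9, 77.5 and 70.7 FPKM in BRFc_60mer. The groups did not overlap (-0.46 ± 0.063, adjusted p = 0.000437). Siglecg, a sialic acid receptor that dampens B cell receptor signals, was at 77.7, 94.4 and 105.8 FPKM against 63.1, 69.7 and 69.4 FPKM (-0.44 ± 0.093, adjusted p = 0.0102). It did not pass without BRFc replicate 3 or BRFc_60mer replicate 1 (adjusted p = 0.0642 and 0.052). Cd22, a receptor of the same family, had a difference of -0.19 ± 0.043 (adjusted p = 0.0159) and did not pass without BRFc replicate 2, BRFc replicate 3 or BRFc_60mer replicate 1 (adjusted p = 0.0773, 0.0697 and 0.0745). Btla, an inhibitory receptor of the CD28 family, was the rise (0.27 ± 0.059, adjusted p = 0.0124). It did not pass without BRFc replicate 3 or BRFc_60mer replicate 2 (adjusted p = 0.0738 and 0.0612). Of 24 genes of B cell receptor signalling, 3 fell (12.5%), 2 rose (8.3%) and 19 did not pass, and 2 fell and 2 rose in the carrying comparison. Dok3, an adaptor that restrains this signalling, was at 106.3, 109.5 and 130.8 FPKM against 69.1, 72.8 and 83.6 FPKM (-0.61 ± 0.095, adjusted p = 0.00119). Btk, the kinase downstream of the receptor, fell from 179.2 ± 9.02 to 155.0 ± 2.58 FPKM (-0.21 ± 0.039, adjusted p = 0.00518). Lyn was the other fall in this list, and Bcl10 and Prkcb were the rises. Against the carrying Ab_3mer libraries in place of BRFc, Siglecg, Cd22, Btla and Dok3 did not pass (limma, adjusted p = 0.303, 0.385, 0.256 and 0.09).

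Of 17 tested transcription factors of B cell identity, 4 rose (23.5%, against 1.46% of all tested genes), 1 fell (5.9%, against 3.37%) and 12 did not pass. The list's median was -0.02, as over all genes, and without BRFc replicate 1 there were 4 rises and 3 falls. The carrying comparison had 3 rises and no fall. Bcl6, the repressor that germinal centre B cells require, was at 29.3, 28.6 and 27.6 FPKM in BRFc and at 37.6, 38.8 and 37.0 FPKM in BRFc_60mer. Both groups were tight (0.40 ± 0.050, adjusted p = 0.000201). Spib, an Ets factor, rose from 192.4 ± 2.91 to 249.8 ± 3.67 FPKM (0.37 ± 0.040, adjusted p = 5.52e-05). Pou2af1, the octamer coactivator OBF-1, rose from 356.2 ± 21.4 to 451.6 ± 5.35 FPKM (0.34 ± 0.051, adjusted p = 0.00088). Lef1, a transcription factor of the Wnt pathway, rose from 4.86 ± 0.528 to 6.95 ± 0.388 FPKM (0.44 ± 0.088, adjusted p = 0.00689). Of 15 activation and costimulation genes, 5 rose (33.3%), 1 fell (6.7%) and 9 did not pass (median 0.20), and 4 rose in the carrying comparison. Among them Sema7a, a semaphorin anchored in the membrane, rose from 10.4 ± 1.05 to 14.5 ± 0.675 FPKM (0.45 ± 0.066, adjusted p = 0.00088).

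Sdc1, the surface proteoglycan CD138 best known from plasma cells, had the largest fall among the panel genes. It stood at 37.3, 36.0 and 33.4 FPKM in BRFc and at 19.0, 22.9 and 22.0 FPKM in BRFc_60mer. The groups were well apart (-0.72 ± 0.078, adjusted p = 6.47e-05). The rest of the plasma cell programme did not follow it: of 11 tested members Pou2af1 rose, Sdc1 fell and 9 did not pass, with a median of -0.01, and the carrying comparison also had 1 rise and 1 fall. Of the 13 tested cytokine genes, Il12a and Lta rose (15.4%, against 1.46% of all tested genes) and 11 did not pass, and 1 rose in the carrying comparison. Il12a, the p35 chain of IL-12 and IL-35, rose from 14.4 ± 1.66 to 19.5 ± 0.424 FPKM (0.42 ± 0.077, adjusted p = 0.00414). Lta was at 0.40 ± 0.105 (adjusted p = 0.0341) and did not pass without BRFc replicate 1, 2 or 3 or BRFc_60mer replicate 1 (adjusted p = 0.0905, 0.0583, 0.0955 and 0.147).

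Of 14 G1 cyclins and inhibitors, 2 fell (14.3%, against 3.37% of all tested genes) and 12 did not pass, and 1 rose and 1 fell in the carrying comparison. Ccne1, cyclin E1, was at 5.98, 6.96 and 6.55 FPKM in BRFc and at 2.88, 3.57 and 3.77 FPKM in BRFc_60mer. The groups did not overlap (-0.77 ± 0.112, adjusted p = 0.000765). Cdkn1b, the inhibitor p27, was at -0.29 ± 0.068 (adjusted p = 0.0187) and did not pass without BRFc replicate 3, BRFc_60mer replicate 1 or BRFc_60mer replicate 2 (adjusted p = 0.105, 0.0787 and 0.0546). Of 20 genes of S phase and mitosis, 1 rose and 1 fell (5% each), and of 21 genes of MYC activity and ribosome biogenesis, 1 rose (4.8%). Of these 3 genes, Mcm5, Aurkb and Nop16, none passed without BRFc replicate 2, BRFc replicate 3 or BRFc_60mer replicate 2 (adjusted p from 0.0793 to 0.24). In the carrying comparison no gene of these 2 lists passed the test of limma. There, 2 of 20 and 3 of 21 had an unadjusted p under 0.05, against 1741 of all 11646 genes. Of 24 immediate early genes, 1 rose (4.2%), 2 fell (8.3%) and 21 did not pass, and 4 fell in the carrying comparison. Btg2, an antiproliferative gene, fell from 138.8 ± 2.43 to 119.7 ± 2.15 FPKM (-0.21 ± 0.036, adjusted p = 0.00261).

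Of 13 genes of MHC class II presentation, 2 rose (15.4%, against 1.46% of all tested genes) and 11 did not pass (median 0.13), and 1 rose in the carrying comparison. Ifi30, a lysosomal thiol reductase that prepares antigens, was at 97.5, 109.4 and 108.3 FPKM in BRFc and at 142.1, 140.4 and 148.0 FPKM in BRFc_60mer. The groups did not overlap (0.45 ± 0.059, adjusted p = 0.000324). Ciita, the class II transactivator, was at 0.25 ± 0.057 (adjusted p = 0.0152) and did not pass without BRFc_60mer replicate 2 (adjusted p = 0.0801). None of 15 class I genes and none of 21 glycolysis and transporter genes passed the test of limma, nor did any with voom. By limma, 4 of 15 and 6 of 21 had an unadjusted p under 0.05, against 2179 of all 11646 genes. Of 19 genes of ATF4 and the integrated stress response, 3 fell (15.8%, against 3.37% of all tested genes) and 16 did not pass, and 2 fell in the carrying comparison. Trib3, a pseudokinase induced by ATF4, fell from 9.86 ± 0.894 to 6.99 ± 0.58 FPKM (-0.44 ± 0.081, adjusted p = 0.00414). Ddit3 and Cebpb were at -0.29 and -0.30 and did not pass without BRFc replicate 2, BRFc replicate 3, BRFc_60mer replicate 2 or BRFc_60mer replicate 3 (adjusted p from 0.0657 to 0.133), and Cebpb not without BRFc replicate 1 (adjusted p = 0.0771). Of 23 cholesterol synthesis genes, 6 rose (26.1%, against 1.46% of all tested genes) and 17 did not pass (median 0.17). Under control antibody 2 rose and 1 fell. In the carrying comparison none passed the test of limma (median 0.11). There, 3 of the 23 had an unadjusted p under 0.05, against 1741 of all 11646 genes. None of the 23 passed in BRFc_60mer against the carrying Ab_3mer libraries. Hmgcs1, an early enzyme of the pathway, rose from 46.8 ± 1.65 to 58.7 ± 2.86 FPKM (0.32 ± 0.062, adjusted p = 0.00615). Without BRFc replicate 3, and likewise without BRFc_60mer replicate 2, 1 of the 23 passed.

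**Figure D4:**
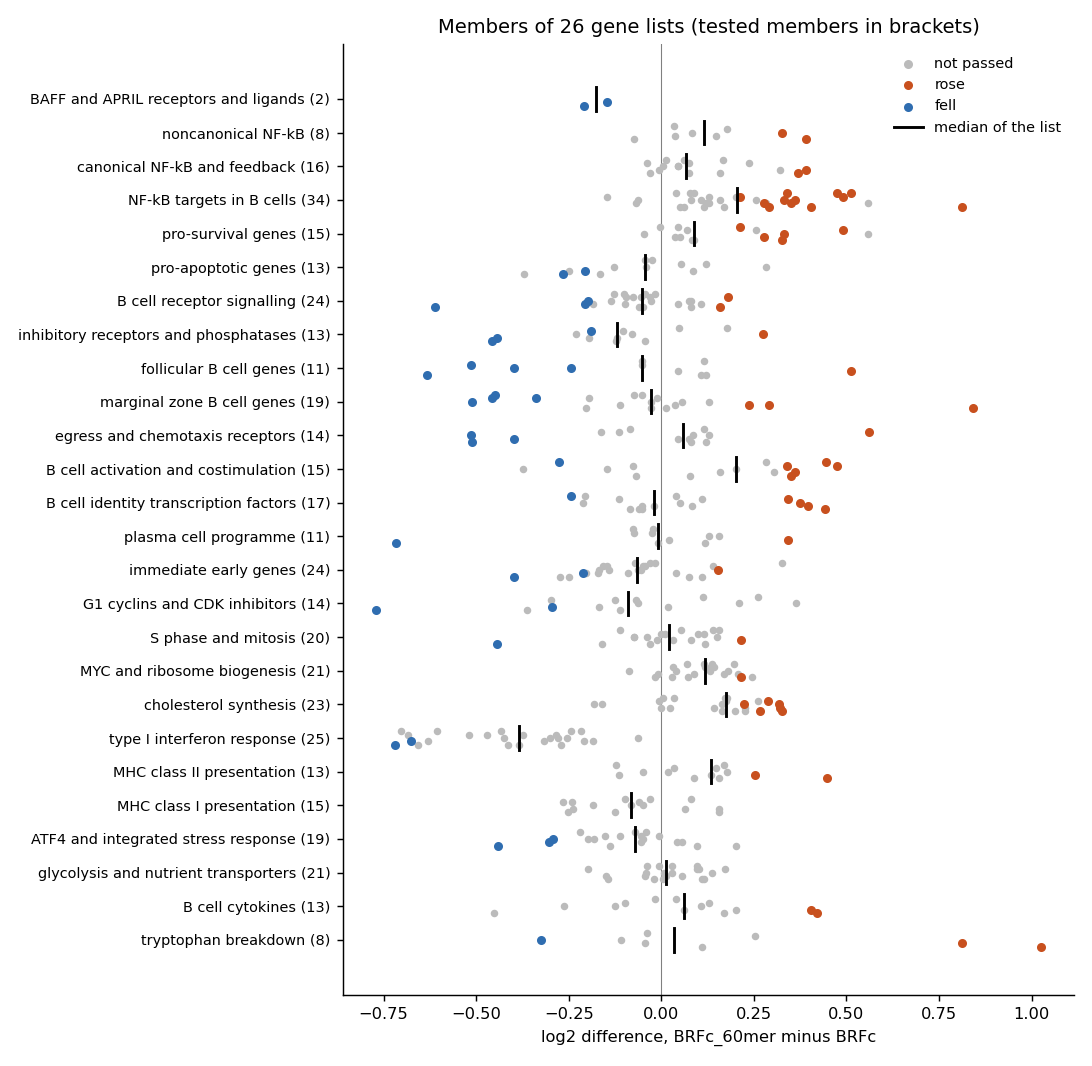
Log2 difference of BRFc_60mer minus BRFc for each tested member of 26 gene lists, with members that rose in red, those that fell in blue, the others in grey and the list's median as a black bar. The NF-kB targets have 12 rises and no fall, and all 25 members of the interferon list lie below 0 although 2 of them passed.

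Genes of the type I interferon response were lower after BAFF 60mer, by an amount that moved with single libraries. All 25 tested members had a negative difference, with a median of -0.38, and 2 passed (8%, against falls in 3.37% of all tested genes). Mx1, an antiviral GTPase, was at 4.02, 4.56 and 5.96 FPKM in BRFc and at 3.23, 1.64 and 2.89 FPKM in BRFc_60mer (-0.72 ± 0.158, adjusted p = 0.0136). Irf7, the transcription factor that amplifies interferon production, was at 17.8, 22.6 and 30.4 FPKM against 13.9, 10.7 and 18.5 FPKM (-0.68 ± 0.185, adjusted p = 0.0453), and its libraries overlapped. Replicate 3 of BRFc was the highest of its group in 23 of the 25 genes, against 41.6% of all tested genes. Replicate 2 of BRFc_60mer was the lowest of the 6 in 24 of 25, for which no share over all tested genes is given. Without BRFc replicate 3 the median was -0.21, without BRFc_60mer replicate 2 it was -0.27, and no member passed in either case (Mx1: adjusted p = 0.0847 and 0.0632). Irf7 also did not pass without BRFc replicate 2 or BRFc_60mer replicate 1 (adjusted p = 0.109 and 0.113). The list's median was -0.19 under control antibody, and 0.00 in the carrying comparison, and no member passed in either. Ifi206 and Ifi213, related genes whose reads counting may split, were at -0.63 ± 0.171 and -0.66 ± 0.148. Neither passed without BRFc replicate 3, BRFc_60mer replicate 2 or BRFc_60mer replicate 3, and Ifi206 not without BRFc replicate 2 (adjusted p from 0.054 to 0.222).

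The other large rises included 3 genes at low levels, Col3a1, Spp1 and Ighg1. Col3a1, a fibrillar collagen, was listed at 0 in all BRFc libraries and at 4.16, 3.98 and 3.74 FPKM in BRFc_60mer (adjusted p = 0.00368). Spp1, the secreted phosphoprotein osteopontin, was at 2.13, 1.54 and 1.67 FPKM against 4.45, 5.4 and 5.57 FPKM (1.14 ± 0.139, adjusted p = 0.000139). Ighg1, the heavy chain of IgG1, was at 2.65, 3.17 and 2.51 FPKM against 9.71, 9.0 and 7.85 FPKM (1.38 ± 0.274, adjusted p = 0.00689). The carrying Ab_3mer libraries held 4.04 and 3.32 FPKM of Spp1 and 6.94 and 6.77 FPKM of Ighg1, and the third Ab_3mer library 2.3 and 2.08 FPKM. Spp1 did not keep to the split, since the Ab_60mer libraries, which carry these transcripts, held 2.0, 2.37 and 2.27 FPKM and the Ab libraries, which do not, 1.91, 2.36 and 1.98 FPKM. In the carrying comparison Spp1 was lower in Ab_60mer (-0.54, adjusted p = 0.04), and Ighg1 was at -0.30 (adjusted p = 0.5). Col3a1 is itself a member of the connective tissue list.

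Of the further named rises, Gadd45g, a stress-induced gene of the GADD45 family, was at 6.29, 8.12 and 6.19 FPKM in BRFc and at 9.39, 15.1 and 15.9 FPKM in BRFc_60mer. The treated libraries were spread but all higher (0.85 ± 0.16, adjusted p = 0.00482). Zbtb46, a transcription factor best known from dendritic cells, was at 10.6, 9.33 and 8.68 FPKM against 18.05, 15.2 and 14.2 FPKM (0.67 ± 0.093, adjusted p = 0.00047). Slc2a6, a glucose transporter family member of lysosomes, was at 17.7, 18.2 and 18.9 FPKM against 31.7, 27.9 and 28.0 FPKM (0.65 ± 0.074, adjusted p = 9.25e-05). Ticam2, an adaptor of Toll-like receptor 4, rose by 0.69 ± 0.082, the sulfotransferase gene Chst10 by 0.62 ± 0.065, the lysosomal trafficking regulator Lyst by 0.62 ± 0.095 and Fam160a1 by 0.62 ± 0.09, and none of these lost its call without any 1 library. The V segment Igkv12-44, whose reads counting may split among related segments, rose by 0.87 ± 0.195 (adjusted p = 0.0152). It did not pass without BRFc replicate 3 or BRFc_60mer replicate 2 (adjusted p = 0.0562 and 0.07).

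The largest named fall was in Zfp69, a zinc finger gene, which stood at 5.0, 5.62 and 6.46 FPKM in BRFc and at 2.06, 3.0 and 3.26 FPKM in BRFc_60mer (-0.84 ± 0.144, adjusted p = 0.00278). Acp5, a tartrate-resistant acid phosphatase, was at 26.9, 27.9 and 31.1 FPKM against 15.8, 17.5 and 15.9 FPKM. Its groups were far apart (-0.77 ± 0.105, adjusted p = 0.000433). Spns2, the exporter of sphingosine 1-phosphate, fell from 9.47 ± 0.845 to 5.75 ± 0.396 FPKM (-0.63 ± 0.109, adjusted p = 0.00278). Rgs14, a regulator of G protein signalling, was at 16.02, 16.6 and 18.4 FPKM against 10.3, 10.2 and 11.6 FPKM (-0.63 ± 0.081, adjusted p = 0.00027). Hepacam2 and the calcium channel gene Cacna1i fell by 0.63 ± 0.102 and 0.62 ± 0.122. B3gnt8, a glycosyltransferase gene, was at -0.61 ± 0.147 and did not pass without BRFc replicate 2 or 3 or BRFc_60mer replicate 1 or 2 (adjusted p = 0.101, 0.103, 0.103 and 0.0553). Trbd1, a T cell receptor segment of very short length, was at -0.73 ± 0.178 and did not pass without BRFc replicate 3, BRFc_60mer replicate 1 or BRFc_60mer replicate 2 (adjusted p = 0.125, 0.0699 and 0.122).

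Between Ab_60mer and Ab, 1628 genes differed, or 14% of those tested (5.04% higher, 8.94% lower), in libraries that the mBaffR-mFc comparison does not use. The Ab libraries held at most 0.057 FPKM of the connective tissue transcripts, so treatment and split cannot be told apart under control antibody either. Of the 563 genes, 401 (71.2%) passed there in the same direction, 107 rises and 294 falls, which is 24.6% of the 1628. None passed in the opposite direction and 550 had the same sign, a count with no share over all tested genes given beside it. The 563 genes had a median size in their own direction of 0.32 under mBaffR-mFc and 0.28 under control antibody. The 1628 had 0.29 under control antibody and 0.17 under mBaffR-mFc; each set is larger where it was selected. In Ab_60mer against the carrying Ab_3mer libraries 246 genes passed (2.11%; 0.884% higher, 1.23% lower). Of the 563, 165 (29.3%, and 67.1% of the 246) passed there in the same direction, 63 rises and 102 falls, and all 165 also passed under control antibody. These 2 comparisons share the Ab_60mer libraries. The 165 included Kynu, Il4i1, Fcer2a, Nfkb2, Pim2, Cd40, S1pr1, Sdc1, Klf2 and Ccne1. The 1628 became 823 without Ab replicate 1, 1000 without Ab replicate 2, 756 without Ab_60mer replicate 1 and 983 without Ab_60mer replicate 2. The 246 became 78 without Ab_3mer replicate 1, 53 without Ab_3mer replicate 2, 140 without Ab_60mer replicate 1 and 158 without Ab_60mer replicate 2.

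**Figure D5:**
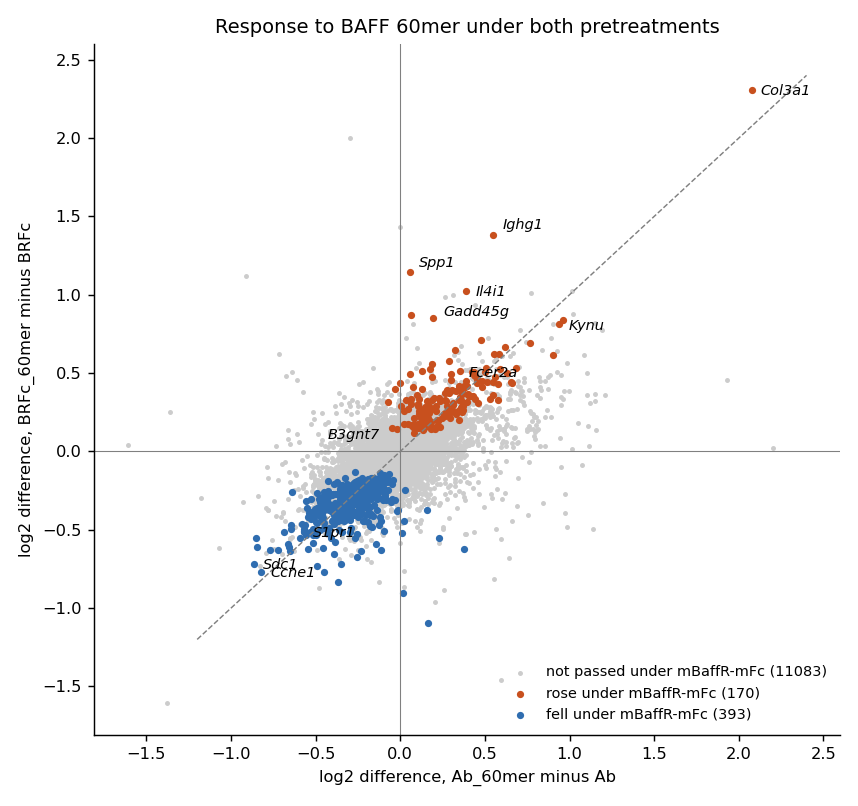
Log2 difference of BAFF 60mer against no BAFF under control antibody (x axis) and under mBaffR-mFc (y axis) for 11646 genes, with the 170 rises and 393 falls under mBaffR-mFc coloured and a dashed line of equal response. Of the coloured genes 550 have the same sign on both axes, and B3gnt7 lies below 0 only on the x axis.

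The difference of the responses was tested as an interaction over all 11646 genes. An unadjusted p under 0.05 was found for 640, near the share that such a cut gives where nothing differs. After adjustment 1 gene passed (0.00859%). That gene was B3gnt7 (chromosome 1, 86302832 to 86307305), which encodes a glycosyltransferase that extends keratan sulfate and related sugar chains. It was at 16.2, 16.5 and 16.4 FPKM in BRFc and at 17.9, 18.5 and 16.97 FPKM in BRFc_60mer, and at 16.9, 16.9 and 15.6 FPKM in Ab and 10.8, 11.99 and 11.8 FPKM in Ab_60mer. The Ab_60mer libraries were below all others, and the BRFc_60mer libraries were above all libraries without BAFF by a smaller margin. The response was 0.11 ± 0.063 under mBaffR-mFc (adjusted p = 0.361) and -0.48 ± 0.063 under control antibody (adjusted p = 0.00018), and the difference was 0.60 ± 0.089 (adjusted p = 0.0468). No gene passed the interaction when any 1 of the 12 libraries was left out. The next smallest p-values were those of Spp1 (1.09 ± 0.196, adjusted p = 0.234) and Casp6, an executioner caspase (0.42 ± 0.084, adjusted p = 0.407). Casp6 was at 0.00 under mBaffR-mFc and -0.43 under control antibody.

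A missed threshold does not show that the responses are equal, and the intervals of the difference bound it. For Kynu the response under mBaffR-mFc minus that under control antibody was -0.13 (95% interval -0.27 to 0.02), for S1pr1 0.06 (-0.04 to 0.16) and for Nfkb2 0.12 (-0.13 to 0.36). For Sdc1 it was 0.15 (-0.08 to 0.38). Some intervals excluded 0 before adjustment over all genes. Il4i1 was higher by 0.64 (0.34 to 0.93) under mBaffR-mFc, with an adjusted p of 0.511. Its values were 173.0, 151.1 and 156.4 FPKM in Ab and 185.9, 212.4 and 234.1 FPKM in Ab_60mer, all below the 252.3 FPKM of the lowest BRFc_60mer library. Bcl6 differed by 0.27 (0.12 to 0.42), Fcer2a by 0.16 (0.04 to 0.28) and Cd44 by -0.19 (-0.32 to -0.05), with adjusted p-values of 0.711, 0.891 and 0.88. The median standard error of a difference of responses was 0.11 over all tested genes, against 0.078 for the response itself.

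The genes that changed differed from the rest in level. The median over 18 libraries was 51.9 FPKM for the rises and 35.4 FPKM for the falls, against 17.7 FPKM over all tested genes, so that calls were made more often among well-expressed genes. The median of the mean transcript length was 1871 bases for rises, 1676 for falls and 1626 for all tested genes. The median GC content was 49.4%, 52.4% and 49.7%.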

How the data were processed

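RNA of 18 libraries was sequenced by a company that, per the labels, also determined the FPKM values deposited by the authors. The aligner, counting tool, genome build and scaling between libraries are not given in the sources used here. Nor is it given whether strand was counted. Exons of 22 of the 103 named genes overlap those of a gene on the other strand. They include Il4i1, B3gnt7, Nfkb2, Acp5, Spns2, B3gnt8, Irf7, Ciita, Ddit3 and Tm6sf1. Of 35275 gene IDs, 34490 matched GENCODE M21 (GRCm38), the source of symbols and positions. Promoters are those of RefSeq (GRCm38.p6). The 18 value columns were mapped to samples by their titles. Replicate numbers follow accession order and pair nothing. Library totals were recovered from the steps of low values of 14953 genes with 1 transcript. Below 500 fragments, 89.0% of those values came out whole within 0.1, and the totals ran from 12.2 to 25.4 M with a median of 18.4 M. No total is a deposited count.

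Values were taken as log2(FPKM + 1), which understates changes of low genes. Tests covered the 11646 genes that averaged 1 FPKM or more, using limma 3.58.1 (R 4.3.3; variance trend, 1 residual variance per gene over 6 groups, Benjamini-Hochberg adjusted p under 0.05). Two-sided tests were used throughout. Each ± after a log2 difference is a standard error and each ± after FPKM an SD of 3 libraries. The carrying comparison was fitted without Ab_3mer replicate 3. The steps were tested on simulated data. Named were the 14 largest rises and 14 largest falls that passed, had at least 2 FPKM in the higher group, a symbol that is not provisional and no overlap between the 6 libraries, a panel of 20 genes, up to 4 passing members of each list (2 if none passed) and the 3 smallest interaction p-values. Some were left out for length. The members, the gene lists, the tests and the alternatives were chosen with earlier results of these data known. Tables and figures used Python 3.11.15, pandas 2.3.3 and matplotlib 3.10.9.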

Additional observations from a re-analysis of the deposited data

Results flagged for a closer look

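The response of B3gnt7 to BAFF 60mer differed between the 2 pretreatments by the test of the difference itself. The response under mBaffR-mFc minus that under control antibody was 0.60 ± 0.089 on the log2 scale (limma, adjusted p = 0.0468), with all 3 Ab_60mer libraries below and all 3 BRFc_60mer libraries above the libraries without BAFF under the same pretreatment. BRFc_60mer was higher than Ab_60mer by 0.59 (adjusted p = 0.000573), and Ab_60mer was lower than the carrying Ab_3mer libraries by a log2 difference of -0.46 (adjusted p = 0.0011). These values come from libraries that also entered the interaction and are no separate evidence. No gene passed the interaction when any 1 of its libraries was left out. None passed without a filter, after rescaling, in a fit of only the groups compared or with the library total as a term. Exons of B3gnt7 overlap those of a provisional gene on the other strand.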

How the results depend on the processing

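The count of 563 genes was 562 with a pseudocount of 0.1, 435 without a filter, 578 with a minimum of 5 FPKM, 515 after rescaling and 694 with voom on recovered fragments. It was 139 in a fit of only the groups compared, 1386 with quality weights, 272 with the library total as a term, 10 with the connective tissue term and 141 with the carrying Ab_3mer libraries in place of BRFc. Without 1 library it ran from 242 to 731. The interaction count of 1 was 0 without a filter, after rescaling, in a fit of only the groups compared, with the library total as a term and without any 1 library (0 to 0), and 2 with the connective tissue term. The control antibody count of 1628 ran from 756 to 1668 and the carrying count of 246 from 53 to 197 without 1 library. Of the 84 named genes that passed, 42 still passed in a fit of only the groups compared, 60 with the library total, 4 with the connective tissue term, and 52 to 78 without 1 library. Col3a1 changed sign, to -0.11 with the connective tissue term and -0.14 against the carrying Ab_3mer libraries, and did not pass with voom (adjusted p = 0.115). The causes were not tested. No paired analysis was possible because the labels give no replicate numbers or pairing. The leave-one-out fits of the control antibody and carrying comparisons and the replacement of BRFc were chosen after seeing the data. Depth limits the low genes: 1 fragment gives 0.0393 to 0.0818 FPKM to a gene 1000 bases long.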
